A study of Rattus norvegicus with 2 samples.

Results

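Genes for the enzymes and transporters of glucose metabolism were examined in rat C6 glioma before and after neural induction with small molecules. The list held 44 genes. Its groups were glucose and lactate transport, glycolysis, lactate dehydrogenase, the alpha arrestins Txnip and Arrdc4, the pentose phosphate pathway and the TCA cycle. A further group, labeled as entry in the figures, held genes for reactions of pyruvate, phosphoenolpyruvate, malate and glutamate around that cycle. Probe sets were taken as members where the platform annotation gave a single gene symbol equal to a listed name, and 36 of the 44 genes were found in this way among 18166 named genes. The other 8 genes were not measured here. Tpi1, Gapdh, Eno1, Pkm and Pgd occurred only on probe sets that list several genes, such as copies and pseudogenes, and Hk1, Pgam1 and Fh were not among the named probe sets.

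Each condition was measured once, as total RNA on a whole-transcript rat array from Affymetrix (2 arrays in all). Undifferentiated C6 glioma, a rat glial tumor cell line, was grown in DMEM with 10% FBS. SMiNs (small molecule-induced neurons) were C6 cells treated over 35 days with the GSK3 inhibitor CHIR99021 at 20 μM and with forskolin, an activator of adenylyl cyclase that raises cAMP, at 100 μM. The paper describes the induction as carried out on Matrigel in a mixture of DMEM/F12 and neurobasal medium with N2, B27, BDNF and GDNF. GEO's labels give the same treatment and the same serum medium for both samples, and the paper's conditions were followed. Medium, coating, small molecules and time in culture differed together, so their parts in any difference cannot be told apart. With 1 array per condition there is no spread between replicates, no test and no p-value, and each fold describes this pair of arrays.

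Values are the log2 signals that the authors deposited, whose medians over all probe sets were 4.79 for C6 glioma and 4.85 for SMiNs. All differences are log2 signal of SMiNs minus that of C6 glioma, so that negative values are lower in SMiNs, and where a pair of log2 signals is given, C6 glioma comes first. The 1359 probe sets of olfactory and vomeronasal receptors stood for genes that these cells should not express, and their 95th percentile (4.79 in C6 glioma, 4.88 in SMiNs) served as a floor. On both arrays 35 of the members reached this floor, and Txnip reached it in C6 glioma alone. Markers of the labeled cells were also measured. Of 7 markers of glioma and oligodendrocyte precursors, all 7 reached the floor in C6 glioma, and 5 were at least 2-fold lower in SMiNs. Of 5 genes of dividing cells, 4 were lower by at least 2-fold. The median log2 signal of the 5 went from 8.99 in C6 glioma to 7.78 in SMiNs, and the median of their differences was -1.75. Of 9 neuronal markers, 6 reached the floor on each array and 1, Tubb3, was at least 2-fold higher. Whatever the size of the difference, 7 of these 9 were higher and 2 lower in SMiNs, and the median of their differences was 0.49. The median log2 signal of the 9 was 5.08 in C6 glioma and 5.06 in SMiNs. Syt1, Stmn2 and Nefl, among the higher, were below the floor on both arrays. Among the markers that reached the floor, Tubb3, Map2, Snap25 and Elavl3 were higher and Rbfox3 and Nefm lower. Of 5 measured astrocyte markers, 1 (Slc1a2) was at least 2-fold higher. S100b was 1.72-fold higher and Gfap 1.48-fold lower, and Aqp4 and Slc1a3 were below the floor on both arrays. None of 4 microglial markers reached the floor on either array, and of 2 measured endothelial markers 1 reached it, in SMiNs. The part of these shifts in the metabolic genes was not tested, and in RNA from a whole culture fewer cells of a type and less RNA per cell cannot be told apart.

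Glycolysis splits glucose into pyruvate in the cytosol, and lactate dehydrogenase turns pyruvate into lactate, which leaves the cell with monocarboxylate transporters. The pentose phosphate pathway branches off from glucose 6-phosphate and yields NADPH and ribose. In mitochondria, pyruvate enters the TCA cycle as acetyl-CoA, and carbon also enters or leaves the cycle through carboxylases, malic enzymes and glutamate dehydrogenase. Dividing tumor cells are known for high glucose uptake and lactate release, and neurons for a strong reliance on oxidative metabolism.

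Most of the measured genes had lower signals in SMiNs. Of the 36 genes, 9 were at least 2-fold lower (25%), 1 was at least 2-fold higher (2.78%) and 26 differed by less. Among all named genes, 8.12% were at least 2-fold lower and 4.27% at least 2-fold higher. The metabolic genes are brighter than most named genes, so genes of like signal were read beside them. Among 2994 named genes with a mean signal within the middle 50% of that of the members, 17.8% were at least 2-fold lower and 7.78% at least 2-fold higher. Median differences were -0.51 for the members, -0.28 for these genes of like signal and 0 for all named genes. At 1.5-fold, 16 members were lower (44.4%) and 2 higher (5.56%), against 34.6% and 16.1% of the genes of like signal and 16.7% and 11.3% of all named genes. Whatever the size of the difference, 27 members were lower, 8 were higher and 1, Pc, had the same value on both arrays. Most genes of like signal were lower too, as their median of -0.28 shows. The sign of 6 members with small differences (Pfkl, Eno2, Taldo1, Pc, Idh2 and Suclg1) depended on how the arrays were scaled.

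**Figure D1:**
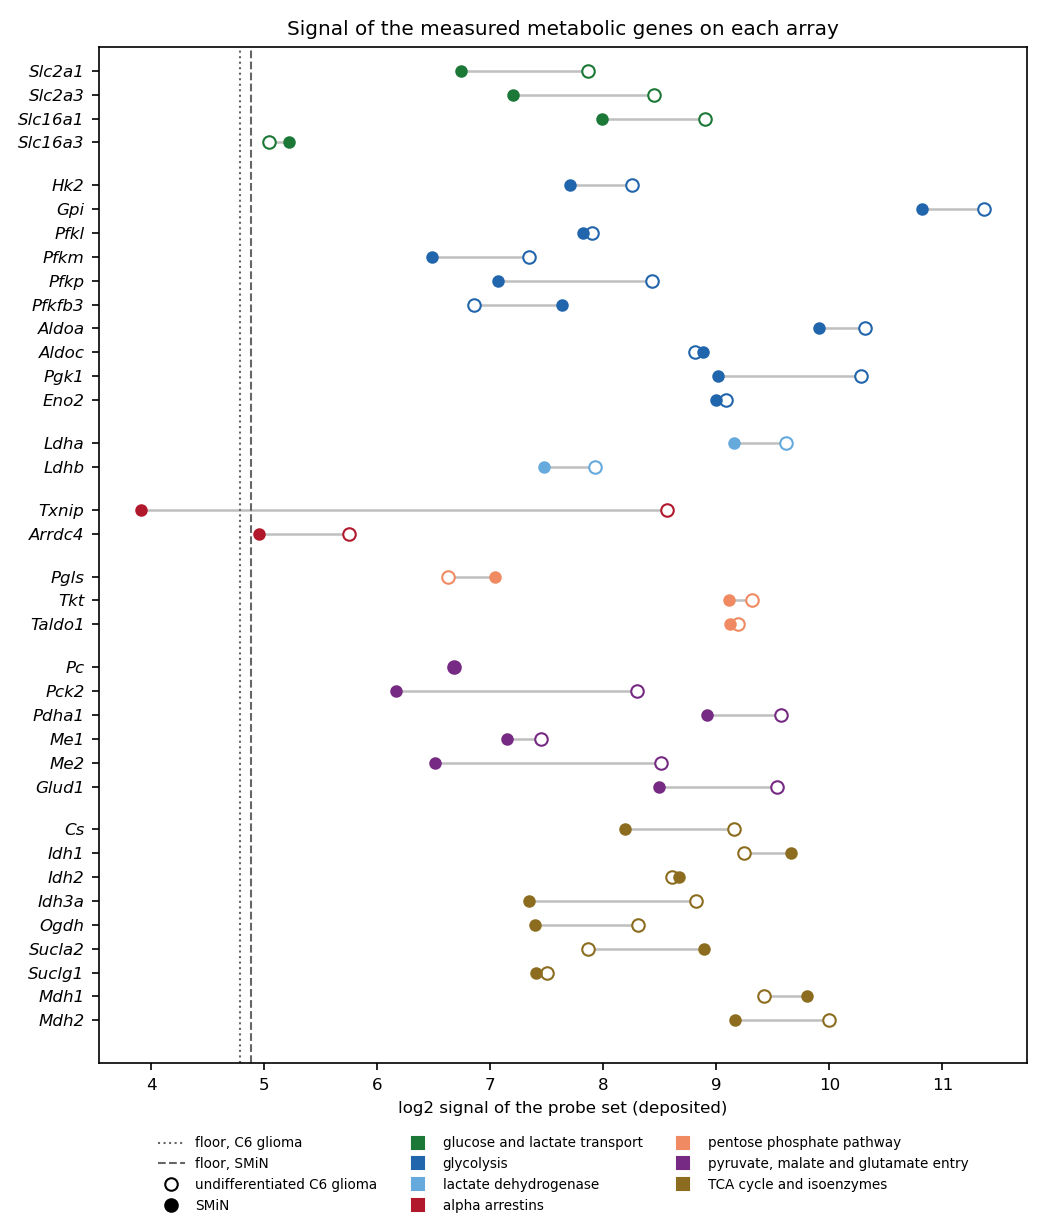
Log2 signal of each measured gene (x axis) in undifferentiated C6 glioma (open circles) and SMiNs (filled circles), 1 array each, with genes grouped and colored by pathway and the floor of each array as a vertical line. Txnip is the only gene whose SMiN signal, 3.91, lies below the floor.

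**Figure D2:**
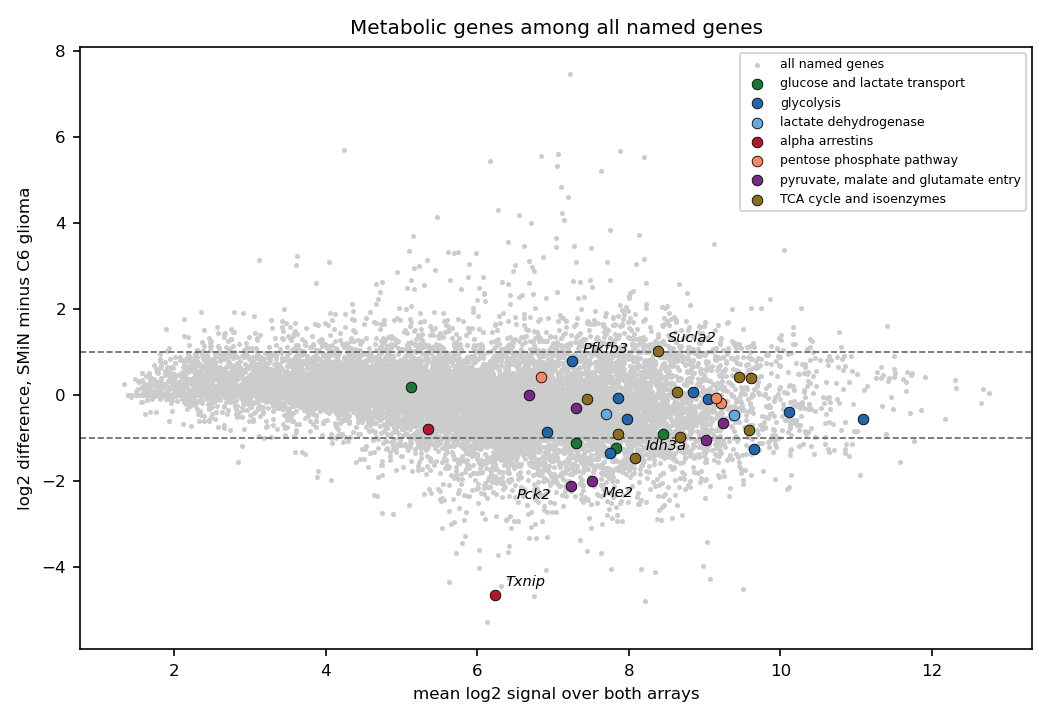
Log2 difference (y axis, SMiN minus C6 glioma) against mean log2 signal of both arrays (x axis) for 18166 named genes in gray and the 36 measured metabolic genes in color, with 2-fold differences as dashed lines. Txnip lies near the lower edge of all genes, 9 members in all, with Pck2 and Me2 next after Txnip, lie below the lower line, and 1 (Sucla2) lies above the upper line.

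Both glucose transporters among the members had lower signals in SMiNs. They were the 2 of 4 transport members (50%) at least 2-fold lower, and the median of the 4 was -1.02. Among genes of like signal 17.8% were at least 2-fold lower, and among all named genes 8.12%. Slc2a1, which encodes the widely expressed transporter GLUT1, gave a log2 signal of 7.86 in C6 glioma against 6.75 in SMiNs, 2.17-fold lower. Slc2a3 encodes GLUT3, the high-affinity transporter typical of neurons, and its signal was 8.45 in C6 glioma against 7.20 in SMiNs, 2.38-fold lower. The neuronal form was thus lower by about as much as the general one, and their log2 differences lay 0.13 apart. Slc16a1, which encodes the lactate and pyruvate transporter MCT1, had 8.90 and 7.99, 1.88-fold lower. Slc16a3 encodes MCT4, a transporter known for lactate export, and was close to the floor on both arrays, with 5.04 and 5.22. Of 17 other transport genes, 1 was at least 2-fold higher, near the 4.27% of all named genes, and none was lower by that much. The higher gene was Slc2a13, a myo-inositol transporter, with 4.84 in C6 glioma, just above the floor, and 5.96 in SMiNs.

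Of 10 measured glycolytic genes, Pgk1 and Pfkp were at least 2-fold lower (2 genes), no gene was higher by as much, and the median difference was -0.48. This share, 20.0%, was near the 17.8% of genes of like signal. Pgk1, phosphoglycerate kinase, which makes ATP, had 10.28 in C6 glioma against 9.02 in SMiNs, 2.40-fold lower. Phosphofructokinase, the main control point of glycolysis, is built from 3 types of subunit, and these differed. Pfkp, the platelet type, had 8.43 and 7.07, 2.57-fold lower, and Pfkm, the muscle type, had 7.35 and 6.49, 1.81-fold lower. Pfkl, the liver type, had 7.90 and 7.82. The ratio of Pfkl to Pfkp signal was therefore 2.43-fold higher in SMiNs.

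Pfkfb3, which makes the activator of phosphofructokinase, fructose 2,6-bisphosphate, went the other way, with 6.86 in C6 glioma and 7.64 in SMiNs, 1.72-fold higher. The hexokinase gene Hk2 had 8.26 and 7.70, and Gpi, the isomerase that follows it, had 11.37 and 10.82, both 1.47-fold lower. Aldoa, the general aldolase, had 10.31 and 9.91, 1.33-fold lower, and Aldoc, the brain aldolase, had 8.82 and 8.88. Eno2, neuron-specific enolase, had 9.09 in C6 glioma against 9.00 in SMiNs. The brain forms of aldolase and enolase thus had nearly the same signal before and after induction. Ldha and Ldhb, the subunits of lactate dehydrogenase that predominate in muscle and heart, were lower by nearly the same factor. Ldha had 9.62 and 9.16, 1.38-fold lower, and Ldhb had 7.92 and 7.48, 1.36-fold lower.

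Of 18 other glycolytic genes, 3 were at least 2-fold lower, no gene was higher by as much, and the median was 0. The share of all named genes at least 2-fold lower was 8.12%. Eno3, the muscle enolase, had 6.89 in C6 glioma and lay below the floor in SMiNs (4.61), at least 4.03-fold lower. Adpgk, an ADP-dependent glucokinase, was at least 2.07-fold lower, and Pgm1, which links glucose 6-phosphate to glycogen, was 2.16-fold lower. Of 7 measured genes of gluconeogenesis and glycerol phosphate, 1 was at least 2-fold lower, the mitochondrial glycerol phosphate dehydrogenase Gpd2 (2.07-fold).

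Txnip had the largest difference of the members. It encodes an alpha arrestin that binds thioredoxin and promotes the removal of GLUT1 from the cell surface, and its transcription is known to follow the glucose supply through the factors MondoA and ChREBP. Its log2 signal was 8.56 in C6 glioma against 3.91 in SMiNs, below the floor, at least 12.8-fold lower. Its difference as deposited, -4.65, ranked as number 4 from the lowest of all 18166 named genes, and with values below the floor set to the floor it ranked as number 12. Arrdc4, a related arrestin with the same known regulators, had 5.75 in C6 glioma against 4.95 in SMiNs, just above the floor, 1.73-fold lower. Both arrestins were thus lower in SMiNs, Arrdc4 by less than 2-fold. Of 9 other measured genes of alpha arrestins and thioredoxins, none differed by 2-fold in either direction. Arrdc3, another alpha arrestin, had 7.96 in C6 glioma against 8.72 in SMiNs, and thioredoxin itself, Txn1, had 11.24 and 11.63.

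None of the 3 measured genes of the pentose phosphate pathway differed by 2-fold, and their median difference was -0.07. Tkt, transketolase, had 9.31 in C6 glioma against 9.12 in SMiNs, and Taldo1, transaldolase, had 9.19 and 9.12. Pgls, the lactonase of the oxidative branch, had 6.63 and 7.05, 1.34-fold higher. Of 9 other measured genes of this pathway and of ribose phosphate use, 2 were at least 2-fold lower and 0 higher. Among all named genes 8.12% were lower and 4.27% higher by as much. Prps2, which makes the activated ribose for nucleotides, had 7.08 in C6 glioma and was below the floor in SMiNs (4.45), at least 4.58-fold lower. Dera, which splits deoxyribose phosphate, was 2.08-fold lower.

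The next group held 6 genes for reactions of pyruvate, phosphoenolpyruvate, malate and glutamate around the TCA cycle, in either direction. Of these, 3 were at least 2-fold lower, 0 were higher by as much, and the median was -0.84. The lower genes were 50% of these 6, against 17.8% of genes of like signal and 8.12% of all named genes. Pck2, the mitochondrial form of phosphoenolpyruvate carboxykinase, had 8.30 in C6 glioma against 6.17 in SMiNs, 4.37-fold lower. Me2, the mitochondrial malic enzyme, had 8.51 and 6.51, 3.99-fold lower. Me1, its cytosolic relative and a source of NADPH, had 7.45 and 7.15, 1.23-fold lower. The ratio of Me1 to Me2 signal was 3.24-fold higher in SMiNs, the largest shift among the 11 pairs of isoforms or subunits compared. Glud1, glutamate dehydrogenase, had 9.54 and 8.50, 2.06-fold lower. Pdha1, the catalytic subunit that commits pyruvate to the TCA cycle, had 9.57 and 8.92, 1.57-fold lower. Pc, pyruvate carboxylase, had 6.68 on both arrays. Exactly equal values were found for 7312 probe sets (19.9%), so this is not read as a sign that the transcript was unchanged.

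Members of the TCA cycle and their isoenzymes differed in both directions. Of 9 measured, 1 was at least 2-fold lower and 1 was at least 2-fold higher, with a median of -0.09. Each was 11.1% of these genes. Among genes of like signal 17.8% were lower and 7.78% higher, and among all named genes 8.12% and 4.27%. Idh3a, a catalytic subunit of the NAD-dependent isocitrate dehydrogenase, had 8.82 in C6 glioma against 7.34 in SMiNs, 2.78-fold lower. Cs, citrate synthase, had 9.16 and 8.19, 1.96-fold lower, and Ogdh, the first enzyme of the 2-oxoglutarate dehydrogenase complex, had 8.31 and 7.40, 1.87-fold lower. The NADP-dependent isocitrate dehydrogenases were not lower as deposited. Idh1, in the cytosol, had 9.25 and 9.66, 1.34-fold higher, and Idh2, in mitochondria, had 8.61 and 8.67. Sucla2, the ATP-forming subunit of succinyl-CoA ligase, had 7.87 and 8.89, 2.03-fold higher, while Suclg1, the subunit it pairs with, had 7.50 and 7.41. Cytosolic malate dehydrogenase, Mdh1, had 9.42 and 9.81, 1.31-fold higher, and its mitochondrial counterpart, Mdh2, had 10.00 and 9.17, 1.78-fold lower. The ratio of Mdh1 to Mdh2 signal was 2.32-fold higher in SMiNs.

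The other subunits of these enzymes were read beside the members. All 3 subunits of the NAD-dependent isocitrate dehydrogenase were lower, with differences of -1.48 for Idh3a, -1.39 for Idh3b and -0.69 for Idh3g. In the pyruvate dehydrogenase complex, Pdha1, Pdhb, Dlat and Pdhx were lower, by -0.39 to -0.65, and Dld, the subunit shared with the 2-oxoglutarate dehydrogenase complex, was higher, with 8.31 in C6 glioma and 9.16 in SMiNs. In succinate dehydrogenase, Sdha, Sdhc and Sdhd were lower (-1.27, -0.64 and -0.32) and Sdhb was higher (0.73). Of the complexes compared, only the subunits of isocitrate dehydrogenase all lay on one side of 0 as deposited. Of 13 other measured genes of the TCA cycle, Idh3b (2.62-fold) and Sdha (2.41-fold) were the 2 at least 2-fold lower, 0 were higher by as much, and the median was -0.38. Genes of like signal to the members had a median difference of -0.28, and 17.8% of them reached 2-fold lower. For all named genes this share was 8.12% and the median difference 0.

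**Figure D3:**
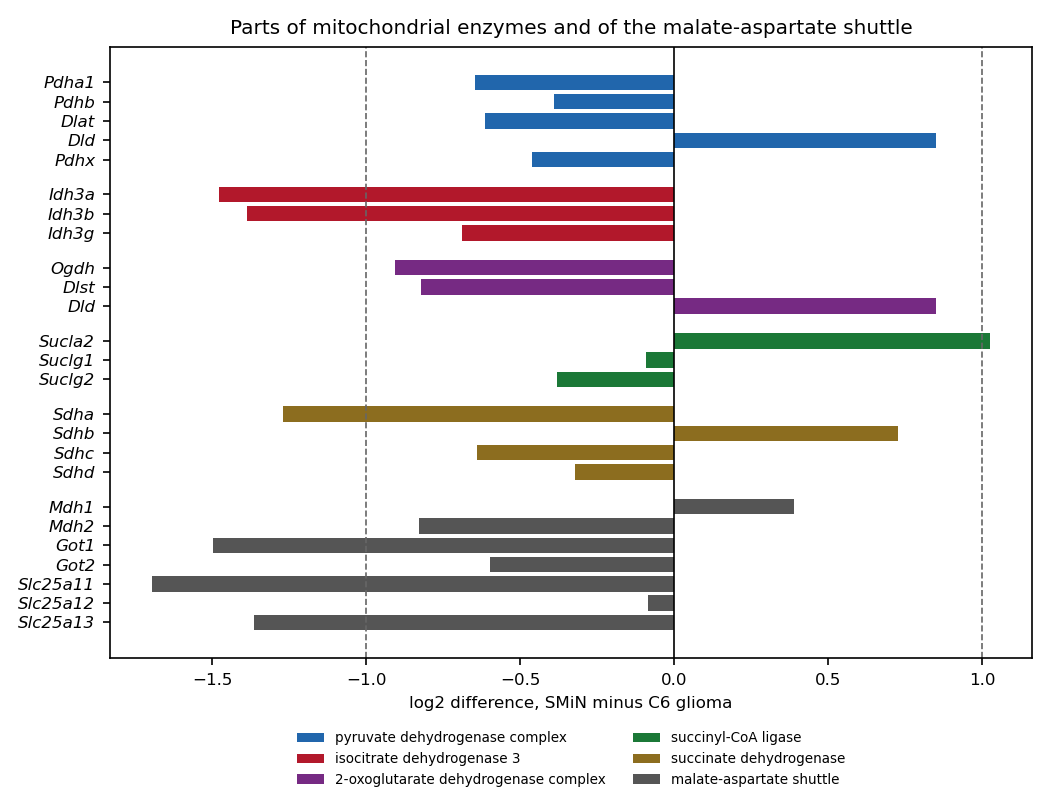
Log2 difference (x axis, SMiN minus C6 glioma, 1 array each) for the subunits of 5 mitochondrial enzymes and for genes of the malate-aspartate shuttle, with 2-fold differences as dashed lines. Dld belongs to both dehydrogenase complexes and is drawn in each. Dld, Sucla2, Sdhb and Mdh1 are the bars to the right of 0.

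The malate-aspartate shuttle carries reducing power from glycolysis into mitochondria with the malate dehydrogenases, transaminases and carriers. Of 12 measured genes of this shuttle and of glutamate metabolism, 4 were at least 2-fold lower, 0 were higher by as much, and the median was -0.56. Among all named genes 8.12% were at least 2-fold lower, and 12.9% among those that reached the floor on at least 1 array. Slc25a11, the oxoglutarate-malate carrier, had 8.92 in C6 glioma against 7.23 in SMiNs, 3.24-fold lower. Got1, the cytosolic aspartate transaminase, was 2.82-fold lower, Gpt2, the mitochondrial alanine transaminase, was 2.60-fold lower, and Slc25a13, an aspartate-glutamate carrier, was 2.58-fold lower. Slc25a12, the form of that carrier typical of brain and muscle, had 7.34 and 7.26.

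Other subunits of pyruvate dehydrogenase, its kinases and phosphatases, the pyruvate carrier and the malic enzyme Me3 made up 14 measured genes. Of these, 2 were at least 2-fold higher and 0 lower, with 7 lower to any extent and a median of -0.07. Among all named genes 4.27% were higher and 8.12% lower by as much. For named genes that reached the floor on at least 1 array, these shares were 5.76% and 12.9%. Pdk4, a kinase that inhibits pyruvate dehydrogenase, had 5.13 in C6 glioma against 7.69 in SMiNs, 5.93-fold higher. The other pyruvate dehydrogenase kinases were not higher, with differences of -0.28 for Pdk1, -0.34 for Pdk2 and -0.83 for Pdk3. Mpc1, a subunit of the mitochondrial pyruvate carrier, had 5.56 and 6.79, 2.35-fold higher.

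**Figure D4:**
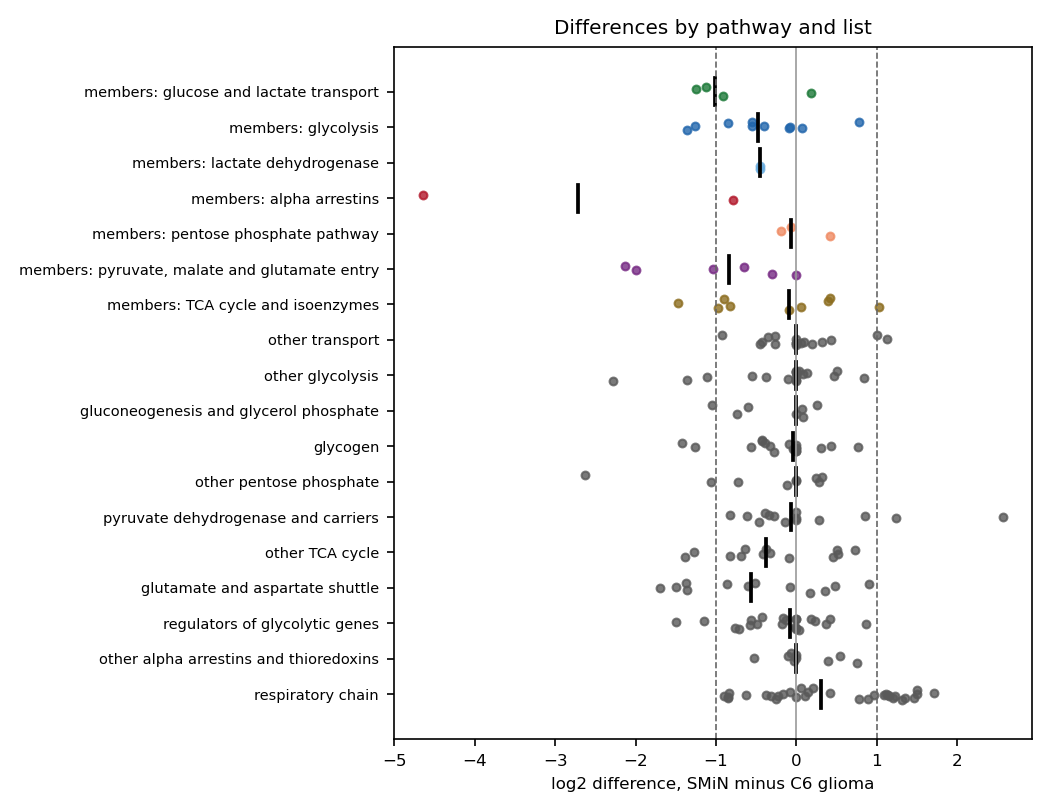
Log2 difference (x axis, SMiN minus C6 glioma, 1 array each) of every measured gene in each pathway of the members (color) and in 11 lists of other metabolic genes (gray), with the median of each as a black bar and 2-fold differences as dashed lines. Medians of the members lie between -2.72 for the alpha arrestins and -0.07 for the pentose phosphate pathway, and that of the respiratory chain lies at 0.31.

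Promoter sequences were searched for motifs of factors that are known to respond to glucose and to cAMP. RefSeq windows of 300 bases (250 before and 50 after the start of transcription, build GRCr8) were found for 30 of the 36 genes, in 32 windows. Txnip, Slc2a3, Pgk1, Pgls, Pc and Idh3a had no window, so no motif was looked for in their promoters. The E-box CACGTG, which MondoA, ChREBP, MYC and other factors recognize, was present in 5 member windows (15.6%) against 6.42% of all 33469 windows. They belonged to Arrdc4, Ldha, Ogdh, Pfkfb3 and Slc16a1, of which Pfkfb3 had a higher and the other 4 a lower signal in SMiNs. TGACG on either strand, the core of the element bound by CREB, was present in 8 member windows (25%) against 21.2% of all. The full element TGACGTCA, looked for after these matches had been seen, was present in 3 (9.38%) against 1.83%, those of Ldha, Mdh2 and Ogdh. The hypoxia response core ACGTG, which every E-box of this form contains, was present in 11 (34.4%) against 19.3%. A match describes the letters and not a bound site, and the differences of the genes were not tested against it. Bases 220 to 21 before the start are shown for Arrdc4 and Pfkfb3, which hold an E-box and differed in opposite directions, and for the 3 genes with the full cAMP element, 5′ to 3′ along the gene, with E-boxes and full cAMP elements in capitals.
Arrdc4 (chr1:131793446-131793645, minus strand): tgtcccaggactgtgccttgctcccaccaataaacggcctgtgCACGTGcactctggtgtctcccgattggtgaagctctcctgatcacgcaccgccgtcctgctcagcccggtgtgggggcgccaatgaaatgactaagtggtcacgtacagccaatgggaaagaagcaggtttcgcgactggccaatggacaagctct
Pfkfb3 (chr17:71944713-71944912, plus strand): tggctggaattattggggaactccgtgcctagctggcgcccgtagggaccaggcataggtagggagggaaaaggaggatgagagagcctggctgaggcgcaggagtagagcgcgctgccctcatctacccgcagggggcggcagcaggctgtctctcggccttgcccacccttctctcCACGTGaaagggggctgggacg
Ldha (chr1:106507872-106508071, plus strand): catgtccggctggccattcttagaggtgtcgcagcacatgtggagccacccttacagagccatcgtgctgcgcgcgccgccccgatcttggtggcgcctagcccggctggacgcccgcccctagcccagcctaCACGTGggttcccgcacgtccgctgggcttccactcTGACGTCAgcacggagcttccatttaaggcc
Mdh2 (chr12:26543862-26544061, minus strand): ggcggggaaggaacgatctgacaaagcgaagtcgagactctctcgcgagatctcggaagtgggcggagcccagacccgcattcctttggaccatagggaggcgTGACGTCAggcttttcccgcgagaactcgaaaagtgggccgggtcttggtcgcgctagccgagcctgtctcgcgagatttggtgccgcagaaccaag
Ogdh (chr14:85363811-85364010, plus strand): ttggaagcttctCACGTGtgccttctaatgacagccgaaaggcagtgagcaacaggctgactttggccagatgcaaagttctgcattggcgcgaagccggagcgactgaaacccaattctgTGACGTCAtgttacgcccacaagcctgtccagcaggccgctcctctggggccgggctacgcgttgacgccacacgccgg
Arrdc4 and Pfkfb3 each held 1 E-box, 177 and 42 bases before the start. Ldha and Ogdh held both an E-box and a full cAMP element in this stretch, and Mdh2 held the cAMP element alone. Ldha, Mdh2 and Ogdh had signals 1.38-fold, 1.78-fold and 1.87-fold lower in SMiNs.

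Several calls lay close to the 2-fold line. Under quantile normalization the difference was -0.90 for Slc2a1, -0.92 for Glud1, and Pfkfb3 reached 2-fold. With each array centred on its median it was -1.03 for Cs and 0.96 for Sucla2.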

How the data were processed

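For 36685 probe sets, the authors deposited a log2 signal on each of 2 arrays. The authors extracted total RNA with Trizol, amplified and labeled it with GeneChip whole-transcript kits, hybridized it to an Affymetrix rat array and used Affymetrix GeneChip Command Console Software. How signals were summarized and normalized, and the genome build, remains not given in the sources used here. That the logarithm has base 2 was taken from the values, which run from about 1 to 13. Values were used as deposited. Because probe sets differ in brightness, no gene was set against another by level. Precision is limited by the number of arrays.

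Of the probe sets, 18511 had 1 gene symbol, 575 had several and 17599 were unnamed here. For the 291 genes with several probe sets the brightest was used, and each of the 36 measured members had only 1, whose Entrez number led to the same symbol in RefSeq. A gene is called lower or higher at 2-fold in the deposited values, and as "at least" where the lower value was raised to the floor. The members, the 11 lists of other metabolic genes and the 6 marker lists were chosen with earlier results of these data known. The band of genes of like signal was chosen after the values were seen. All members could be named, and up to 4 genes each way past 2-fold of each other list. Genes named beside these, such as Arrdc3, Txn1, Slc25a12, Pdk1, Pdk2, Pdk3 and the remaining enzyme subunits, were chosen after their values were seen. Counting was tested on simulated data with 200 changed genes. Alternatives were median centring, quantile normalization, values raised to the floor, a filter at the floor, the mean of probe sets, leaving out equal values, and 1.5-fold. Python 3.11.15, numpy 2.4.6, pandas 2.3.3 and matplotlib 3.10.9 were used.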

Additional observations from a re-analysis of the deposited data

How the results depend on the processing

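No paired analysis was possible because there was 1 array per condition, so no replicate could be left out either. With each array centred on its median, 10 members were at least 2-fold lower and 0 higher, against 9.23% and 3.78% of all named genes. In the TCA cycle 2 were lower and 0 higher under this scaling. Under quantile normalization 2 members were at least 2-fold higher, 1 of them in glycolysis, and 1 transporter in place of 2 was at least 2-fold lower. Of all named genes, 6.58% were then at least 2-fold lower and 5% at least 2-fold higher. At 1.5-fold in place of 2-fold, 16 members were lower and 2 higher (34.6% and 16.1% of genes of like signal, 16.7% and 11.3% of all named genes), among them 1 higher in glycolysis, both arrestins (2) lower and 4 lower in the TCA cycle. The difference of Txnip was -3.68 with values below the floor set to the floor. The other counts of each pathway stayed within 1.5 times, and all pathway medians moved by less than 0.58. The 9 lower members in all were 7 under quantile normalization. Centring shifted the median of all named genes by -0.06. Across scalings 23 members stayed lower and 7 stayed higher.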

Other observations

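Genes of the respiratory chain, which follows the TCA cycle, had mostly higher signals in SMiNs. Of 32 measured, 12 were at least 2-fold higher and 0 lower, with a median difference of 0.31. Whatever the size of the difference, 20 were higher, 11 lower and 1 had equal values. The share that reached 2-fold higher was 4.27% of all named genes and 7.78% of genes of like signal to the members. Ndufa1, a small subunit of complex I, had a signal of 5.95 in C6 glioma against 7.66 in SMiNs on the log2 scale, 3.28-fold higher. Cox7c, a small subunit of cytochrome oxidase, had 7.28 and 8.78, 2.83-fold higher, and Ndufb3 of complex I had 8.39 and 9.89, 2.82-fold higher. Ndufa2, also of complex I, was 2.76-fold higher. Other subunits were lower, among them Ndufv1, which binds NADH, with 7.62 and 6.76, and Cox5b with 8.21 and 7.31. Ndufv1 and Cox5b were chosen after their values were seen. These differences were not tested, with 1 array per condition.

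Of 19 measured genes of glycogen metabolism, 2 were at least 2-fold lower, 0 were higher by as much, and the median was -0.04. The lower share was near that of all named genes, 8.12%. Gys1, the glycogen synthase of muscle and most other tissues, had 6.71 in C6 glioma against 5.29 in SMiNs, 2.69-fold lower. Gsk3b, a form of GSK3, which inhibits glycogen synthase and is the target of CHIR99021, was 2.40-fold lower. The other form, Gsk3a, went the other way, with 7.99 in C6 glioma and 8.42 in SMiNs, 1.35-fold higher. Of 22 measured regulators of glycolytic and mitochondrial genes, 2 were at least 2-fold lower and 0 higher. This share of lower genes was near the 8.12% of all named genes. Myc, an activator of glycolytic genes, had 7.56 and 6.06, 2.83-fold lower, and Arnt, the partner of the HIF factors, had 7.93 and 6.78, 2.21-fold lower. Hif1a itself had 8.79 in C6 glioma against 8.66 in SMiNs. Mlxip, which encodes MondoA, had 7.14 and 6.37, and its partner Mlx had 6.59 and 6.01. Gsk3a, Hif1a, Mlxip and Mlx were chosen after their values were seen.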
